A study of Cavia porcellus with 11 samples.

Results

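Cochleae of guinea pigs (Cavia porcellus) that had received cisplatin were compared with cochleae of untreated guinea pigs by bulk RNA-seq, across all genes. The comparison used the 4 libraries labelled as cisplatin treatment and the 4 labelled as without treatment, which are 8 of the 11 libraries of the study. The other 3 libraries came from cochleae given cisplatin together with STB and were not compared here. They entered the low-count filter, the scaling of the libraries and the estimate of the spread between libraries. The design text of the study calls the untreated group wildtype. No other allele or agent is named for either group, and both groups share the species and the tissue. The labels name no dose, route, time after treatment, strain, sex, age or number of animals or cochleae for a library. Since they also do not state whether each library had its own animals, a p-value here sets the difference against library-to-library spread, and that spread may be technical.

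The cochlea is a coiled bony duct. It holds the sensory hair cells and their supporting cells, the spiral ganglion neurons with their Schwann cells, the stria vascularis that secretes the potassium-rich endolymph, and the fibrocytes of the spiral ligament. Cisplatin binds DNA and forms platinum adducts, and its use in patients is limited by hearing loss. In laboratory animals it is known for loss of outer hair cells and damage to the stria and the spiral ganglion. Cells with platinum adducts repair them by nucleotide excision and crosslink repair, can activate p53 and its targets, and can die by intrinsic apoptosis.

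The libraries held 14338894 to 18508296 counts in the untreated group and 15987935 to 17250430 after cisplatin. Coch, which encodes the secreted inner ear protein cochlin, took 2.79% to 4.97% of the counts over the 11 libraries. Markers that define other cochlear cells were present in all 8 libraries: Myo7a, a hair cell myosin, stood at 33.7 to 66.8 CPM (read counts scaled by the TMM-corrected size of the library) in untreated libraries and 49.4 to 73 after cisplatin, and Gjb2, the connexin of the supporting cell and fibrocyte networks, at 1549 to 1796 CPM untreated against 1620 to 2405 CPM. Markers of cartilage, bone, marrow and muscle were also present. In such bulk tissue, fewer cells of a type and less RNA per cell cannot be told apart. Values by library are given in the order of replicates 1 to 4, and a library is called by its group and replicate number (cisplatin 2).

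Of 15384 genes tested, 0 (0%) passed an adjusted p under 0.05 by edgeR's quasi-likelihood test with Benjamini-Hochberg adjustment over all genes. None of the differences below therefore passed that threshold, and they are given as values. At an unadjusted p under 0.05, here called nominal p, 682 genes (4.43%) were higher after cisplatin and 812 (5.28%) were lower. In 431 genes (2.80%) all 4 cisplatin libraries lay above all 4 untreated libraries, and in 501 (3.26%) all 4 lay below. DESeq2 called 33 genes (0.215%) at an adjusted p under 0.05, of which 13 were higher and 20 lower, and for 32 of them the groups did not overlap. The genes called by limma-voom with library quality weights were 3 (0.0195%), namely Adap2, Myo7b and Col17a1.

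The libraries of the cisplatin group did not contribute equally. Among the 682 nominally higher genes the highest of the 8 libraries was cisplatin 2 for 359 genes (52.6%) and cisplatin 4 for 216 (31.7%). Among the 812 nominally lower genes the lowest library was cisplatin 4 for 340 (41.9%) and cisplatin 2 for 277 (34.1%). Cisplatin 1 was the cisplatin library nearest to the untreated group for 404 of the higher genes (59.2%) and 493 of the lower genes (60.7%). With cisplatin 2 left out, 536 of 15342 genes (3.49%) were nominally higher and 694 (4.52%) lower, again with 0 passing the adjustment. Genes whose groups did not overlap then numbered 645 (4.19%) higher and 816 (5.30%) lower, over 3 against 4 libraries. Of the 682 higher genes 383 (56.2%) stayed nominally higher without it, and of the 812 lower genes 487 (60%) stayed lower. Differences over 1 on the log2 scale were held by 113 of the higher genes, and by 52 of these also without cisplatin 2. For the lower genes these counts were 115 and 88.

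**Figure D1:**
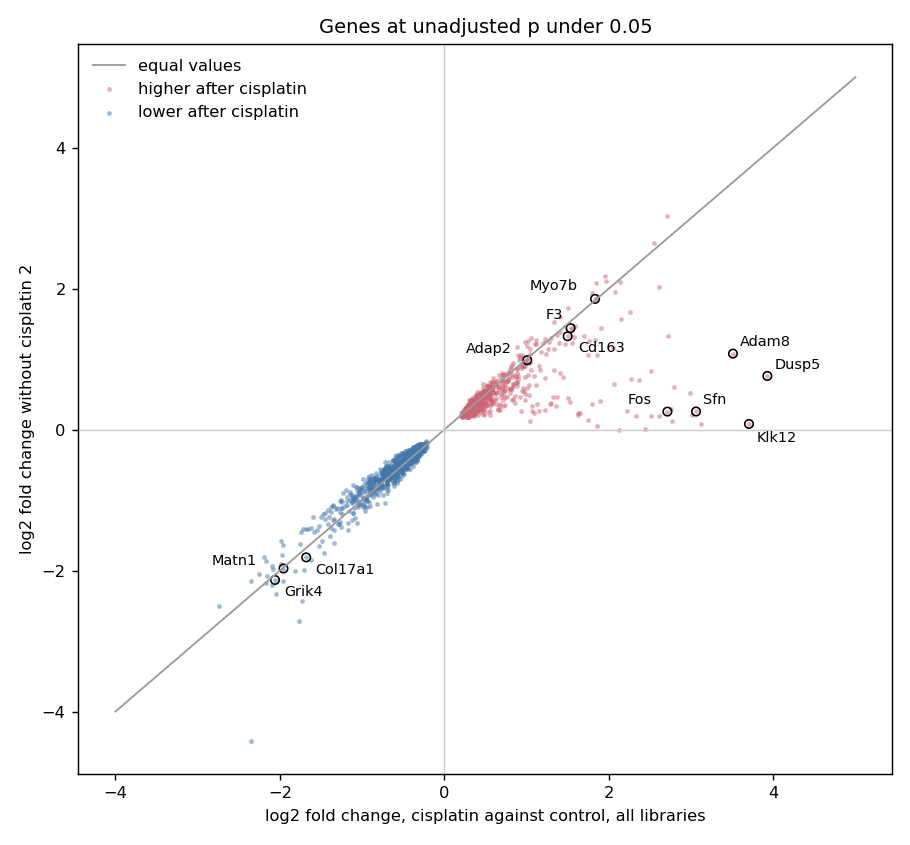
Each point is a gene at an unadjusted edgeR p under 0.05 that was also tested without cisplatin 2. The x axis is its fitted log2 fold change with all libraries, the y axis the same without cisplatin 2, and the line marks equal values. Most points lie along the line, while higher genes (red) such as Fos (2.71 and 0.26), Klk12 (3.71 and 0.08) and Dusp5 (3.93 and 0.76) lie far below it.

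A small set of genes differed with any single library left out. Genes with an unadjusted p under 0.01 and the same direction in the fit of all libraries and in each of the 8 fits that left out 1 untreated or cisplatin library numbered 26 higher (0.169% of tested genes) and 47 lower (0.306%), and in 23 and 45 of these the groups did not overlap. All 33 genes called by DESeq2 were among them. Adap2, an Arf GTPase-activating protein that binds phosphoinositides, stood at 98.9, 84.5, 88.1 and 95.3 CPM in the untreated libraries and 146, 196, 199 and 197 CPM after cisplatin. Cisplatin 1 was the lowest of its group, and the groups did not overlap. The log2 fold change of Adap2 was 1.01, SE 0.15 with all libraries and 0.98, SE 0.16 without cisplatin 2 (edgeR adjusted p = 0.129 with all libraries). The deposited table places the gene between bases 70848819 and 70875524 of a scaffold, minus strand, on an assembly that the table does not name.

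Myo7b encodes an unconventional myosin known from the tips of intestinal and kidney microvilli, and is a different gene from the hair cell myosin Myo7a. It stood at 1.03, 1.06, 0.975 and 0.874 CPM in untreated libraries and 3.06, 3.43, 4.1 and 3.54 CPM after cisplatin. The groups did not overlap and the log2 fold change was 1.83, SE 0.30, or 1.85 without cisplatin 2. F3, tissue factor, which starts the extrinsic clotting cascade, stood at 18.3, 10.6, 15 and 15.2 CPM untreated against 65.1, 51.5, 29.1 and 25.8 CPM, with cisplatin 1 and cisplatin 2 above the others (1.54, SE 0.28, and 1.44 without cisplatin 2). Prodh, the mitochondrial proline dehydrogenase, was at 7.09, 8.12, 7.28 and 4.92 CPM untreated and 16.4, 28.3, 19.1 and 12.2 CPM after cisplatin, highest in cisplatin 2 (1.47, SE 0.29, and 1.22 without it). The other genes higher in every cisplatin library included Slc30a2, a zinc transporter (1.04), Apold1, an immediate early gene of vascular cells (1.01), Osmr, the oncostatin M receptor (1.02), Endou, a poly(U)-specific endonuclease (0.99), and Slc1a5, a glutamine transporter (0.70), all as log2 fold changes. Slbp, which binds histone mRNA (0.42), Ptp4a2, a tyrosine phosphatase (0.41), Mocos, the molybdenum cofactor sulfurase (0.59), and Anxa7, an annexin (0.45), were higher by less. For Strn3 (0.57), Pih1d2 (0.95), Ankrd35 (0.56) and Bbof1 (0.42) the groups did not overlap either.

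Col17a1 had the smallest p of the table. It encodes the transmembrane collagen of hemidesmosomes, which anchor epithelial cells to their basement membrane. Its level was 16.9, 16.6, 17.6 and 22.8 CPM in the untreated libraries and 6.24, 7.37, 4.21 and 5.25 CPM after cisplatin. The lowest untreated library was thus above the highest cisplatin library, and the log2 fold change was -1.68, SE 0.22, or -1.81, SE 0.22 without cisplatin 2. By edgeR its adjusted p was 0.0719 with all libraries. Matn1, matrilin of cartilage matrix, stood at 7.23, 8.24, 7.8 and 12.3 CPM untreated against 2.5, 2.39, 2.26 and 2.01 CPM (-1.96, SE 0.33, and -1.97 without cisplatin 2). Grik4, a kainate receptor subunit, was low in both groups, at 1.38, 1.25, 2.28 and 1.64 CPM untreated against 0.312, 0.453, 0.356 and 0.427 CPM (-2.06, SE 0.38). For these 3 genes the 4 cisplatin libraries lay close together and below every untreated library.

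Myh7b, a slow-type myosin heavy chain gene, stood at 80.1, 81, 65.5 and 76.1 CPM in untreated libraries and 56.1, 27.4, 33 and 31.3 CPM after cisplatin, with cisplatin 1 between the untreated group and the other 3 (-1.03, SE 0.19). The mono-ADP-ribose hydrolase gene Macrod2 had the same order, at 24, 22.6, 21.7 and 23 CPM untreated against 16.9, 7.37, 7.54 and 7.68 CPM (-1.21, SE 0.25). Without cisplatin 1 edgeR called 7 genes at an adjusted p under 0.05, among them Macrod2 (-1.59), Myh7b (-1.30), Adap2 (1.11), Col17a1 (-1.71) and Amotl2, an angiomotin of cell junctions (1.07), each given as its log2 fold change in that fit. Abcc8, the sulfonylurea receptor subunit of ATP-sensitive potassium channels, was at 24.4, 23, 27.2 and 21.6 CPM untreated against 15, 9.96, 15.2 and 7.75 CPM (-1.01, SE 0.25). Rimbp2, a presynaptic scaffold of calcium channels (-0.64), Tubb4a, a neuronal and glial beta-tubulin (-0.66), Sdk1, a synaptic adhesion molecule (-0.56), Cntn6, a neuronal contactin (-2.16), and Kcna4, a voltage-gated potassium channel (-0.91, with cisplatin 1 inside the untreated range), also had log2 fold changes below 0. Others of the same set were Pex11g, a peroxisome protein (-1.29), Entpd2, an ectonucleotidase (-0.61), Lzts2 (-0.54), Cblc, a ubiquitin ligase (-0.90), Fhit (-1.03), Wnt5b, a Wnt ligand (-0.57), Gpc5, a glypican (-1.27), Sox13 (-0.61) and Irx6 (-0.60).

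Where 2 genes on opposite strands overlap, a read may have been counted for either, because no source states whether counting used the strand. In the deposited coordinates Myh7b overlaps Gss, Macrod2 overlaps Flrt3, Lzts2 overlaps Pdzd7, Slc30a2 overlaps Extl1 and Strn3 overlaps Ap4s1. Prodh and Fhit each overlap a gene that has a LOC symbol, Wnt5b overlaps Fbxl14 and Bbof1 overlaps Aldh6a1 and Entpd5. Of the genes described further on, this holds for Matn4, Atp6v0a4, Per3, Triap1, Hrk, Plaur, Sdhd, Plk1, Bax, Mdm2, Ca9 and B3gntl1. The share of genes with such an overlap was 13.5% among the nominally higher genes, 15.9% among the lower genes and 15.4% among all genes tested.

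**Figure D2:**
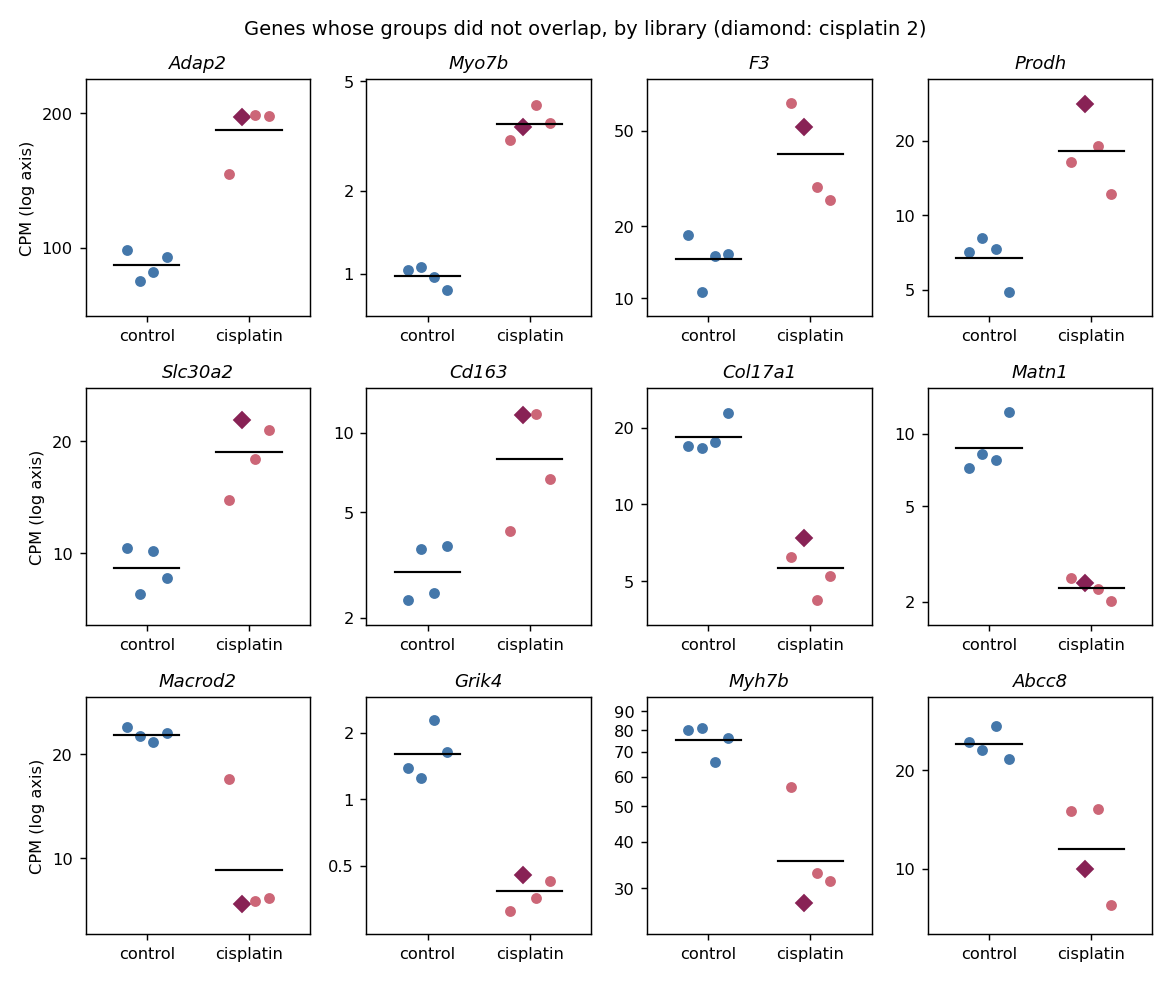
CPM on a log axis for 12 genes whose groups did not overlap, with 1 point per library (4 untreated, 4 cisplatin), diamonds for cisplatin 2 and bars for the geometric mean of the group. Cisplatin 2 lies within the range of the other cisplatin libraries for Adap2, Myo7b, F3, Cd163, Matn1 and Abcc8, and cisplatin 1 lies nearest to the untreated group for Adap2, Myo7b, Slc30a2, Cd163, Matn1, Myh7b and Macrod2.

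To see which compartments and functions the differences touch, 55 gene lists were described, 25 for tissue compartments and 30 for functions. They hold 1297 symbols, of which 1199 were in the table and 1074 were tested. The score of a list in a library is the mean log2 CPM of its tested members after the untreated mean of each member is subtracted, so that the untreated group averages 0. Over all genes tested the median log2 fold change was -0.01, with 7552 genes higher and 7832 lower. The shares of all genes that a list's nominal counts stand against were 4.43% higher and 5.28% lower, or 3.49% and 4.52% without cisplatin 2. Of the 55 lists, 32 had a median above 0, 27 kept the sign of their median with any of the 8 libraries left out, and for 3 the scores of the groups did not overlap. These 3 were the glucocorticoid response, iron, haem and metal handling, and the hypoxia response, all higher after cisplatin. For each of the 3 the gap between the group scores closed when a few members, chosen after seeing the data, were left out. Those members were Dusp1, Sesn1 and Hif3a, then Hamp, Cd163 and Slc30a2, and then Hif3a, in that order. The other 19 glucocorticoid members kept a median of 0.41, with 17 higher and 2 lower. Their scores overlapped because cisplatin 1 (0.11) fell below control 1 (0.13).

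**Figure D3:**
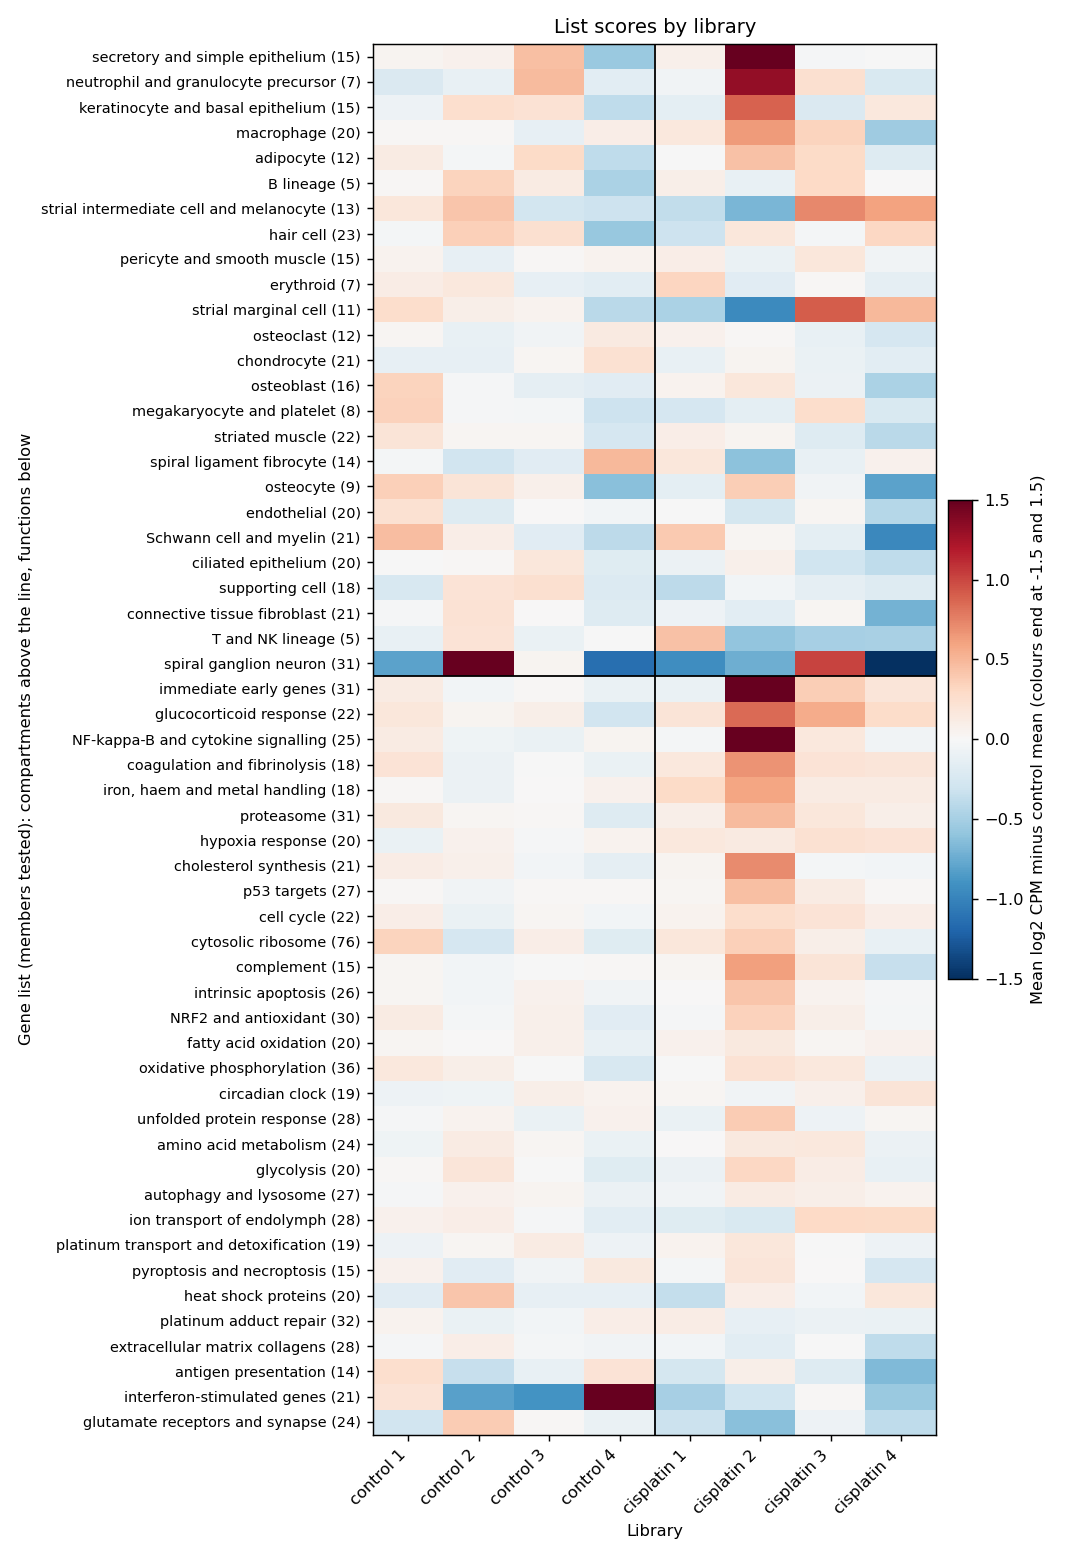
Rows are the 55 gene lists with the number of members tested, columns are the 8 libraries, and colour is the list score (mean log2 CPM minus the untreated mean). The colour scale ends at 1.5 in either direction. Scores of 1.72 for secretory and simple epithelium, 2.15 for immediate early genes and 1.66 for NF-kappa-B and cytokine signalling stand in cisplatin 2, while control 2 is high for neuron markers (1.89) and control 4 for interferon-stimulated genes (1.51).

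Hair cells are the cells best known to be lost after cisplatin, and their markers showed no common direction. Of 23 tested hair cell markers 12 were higher and 11 lower, with 0 at a nominal p under 0.05, and their median log2 fold change was 0.04 (-0.06 without cisplatin 2). Ocm, oncomodulin, a calcium-binding protein of outer hair cells, stood at 1091, 1401, 1438 and 343 CPM in untreated libraries and 798, 1912, 1097 and 1583 CPM after cisplatin. Slc26a5, prestin, the motor protein of outer hair cells, was at 7.57, 15, 10.5 and 5.3 CPM untreated against 11, 8.15, 8.31 and 12.3 CPM, and Otof, the calcium sensor of inner hair cell synapses, at 271, 225, 328 and 209 CPM untreated against 159, 224, 286 and 264 CPM. For each of these the groups overlapped, and control 4 was the lowest untreated library. The hair cell score was -0.03, 0.36, 0.24 and -0.57 in untreated libraries and -0.32, 0.17, -0.03 and 0.31 after cisplatin, so the spread within the untreated group exceeded the difference between the groups.

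Supporting cell markers were lower on balance, and this did not rest on cisplatin 2. Of 18 tested members 13 were lower, 3 of them at a nominal p under 0.05 against 5.28% of all genes, and the median was -0.17 (-0.27 without cisplatin 2). All 3 belong to the acellular gels that cover the sensory epithelium or to the extracellular matrix. Otog, otogelin, stood at 242, 232, 279 and 187 CPM in untreated libraries and 158, 186, 153 and 165 CPM after cisplatin (-0.51, SE 0.18). Ceacam16, a glycoprotein of the tectorial membrane, was at 1318, 1421, 1578 and 1707 CPM untreated against 1021, 1070, 863 and 771 CPM (-0.69, SE 0.25), and for both genes the groups did not overlap. Matn4, a matrilin, was at 29.7, 36, 45 and 26.3 CPM untreated against 18.9, 33.6, 17.8 and 13.1 CPM, with cisplatin 2 inside the untreated range, so that its log2 fold change was -0.72 with all libraries and -1.04 without cisplatin 2. Tecta, a tectorin of the same membrane (1.65 to 4.04 CPM untreated against 1.31 to 2.62 CPM), and the supporting cell transcription factor Sox2 (22.9 to 43.2 CPM untreated against 27.3 to 37.8 CPM) overlapped between the groups. The scores of the list also overlapped, at -0.24 to 0.24 and -0.39 to -0.04.

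Neuron markers varied more between libraries than between groups. Of 31 tested spiral ganglion markers 29 were lower after cisplatin, with a median of -0.81, yet 0 were at a nominal p under 0.05. The score was -0.80, 1.89, 0.04 and -1.13 in untreated libraries and -0.94, -0.73, 1.01 and -1.51 after cisplatin. Control 2 and cisplatin 3 were thus the libraries with the highest neuron scores, and without control 2 the median was 0.38, above 0. Snap25, a synaptic vesicle fusion protein, ranged over 25.1, 396, 68.5 and 10.8 CPM in the untreated group and 16, 26, 211 and 20.2 CPM after cisplatin. Tubb3, neuronal beta-tubulin, ranged over 10.2, 105, 19.5 and 5.9 CPM untreated against 9.18, 35.1, 57.9 and 7.62 CPM. How much of the difference in any neuronal gene moves with this score was not tested. Schwann cell and myelin markers had a median of -0.15, with 0 of 21 at a nominal p under 0.05. Their score was -0.97 in cisplatin 4 and -0.40 to 0.46 in the untreated group.

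Glutamate receptors and synaptic genes were lower, with 19 of 24 members below 0, a median of -0.33 (-0.18 without cisplatin 2), 0 nominally higher and 3 nominally lower (5.28% of all genes). Beside Grik4, these were Grik2, a kainate receptor subunit, at 27.6, 28.9, 24.6 and 26.3 CPM untreated and 25.3, 15, 16.9 and 20.3 CPM after cisplatin (-0.47, SE 0.17), and Grin2d, an NMDA receptor subunit, at 15.3, 12.9, 11.4 and 18.3 CPM untreated against 12.4, 8.47, 9.74 and 9.33 CPM (-0.53, SE 0.19). In both the values of cisplatin 1 lay inside the untreated range. In cisplatin 2, 3 and 4 both genes lay below every untreated library. The neuron scores of cisplatin 1 to 4 were -0.94, -0.73, 1.01 and -1.51. How far either gene moves with that score was not tested.

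The stria vascularis split the cisplatin group. Marginal cells, which secrete potassium into the endolymph, had marker scores of -0.47, -0.95, 0.91 and 0.49 in cisplatin 1 to 4 against -0.40 to 0.27 in the untreated group. Intermediate cells, the pigmented melanocytes of the stria, had scores of -0.36, -0.69, 0.72 and 0.60 against -0.31 to 0.42. Both compartments were therefore below the untreated range in cisplatin 1 and cisplatin 2 and above it in cisplatin 3 and cisplatin 4. Kcne1, a subunit of the potassium channel of marginal cells, stood at 14, 11.9, 15.3 and 3.83 CPM untreated and 6.06, 6.21, 39.1 and 16.7 CPM after cisplatin. Esrrb, a nuclear receptor needed for marginal cell identity in mice, was at 7.71, 3.81, 3.97 and 0.546 CPM untreated against 0.562, 0, 21.1 and 9.33 CPM, with 0 counts in cisplatin 2. Dct, an enzyme of melanin synthesis, was at 11.4, 17.3, 0.845 and 3.33 CPM untreated against 2.68, 0, 31.3 and 13.3 CPM, also with 0 counts in cisplatin 2. Such values differ by library rather than by group, and the medians of both lists (0.17 and 0.19) carry that spread.

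A few genes of pigment cells and ion transport were at a nominal p under 0.05. Slc45a2, a melanosome transporter, was at 13.5, 24, 24.9 and 36.1 CPM untreated and 14.7, 5.69, 14.4 and 8.66 CPM after cisplatin (-1.18, SE 0.36, and -0.96 without cisplatin 2). It was nominally lower with overlap, since cisplatin 1 and cisplatin 3 lay above control 1. Wnk4, a kinase that regulates chloride and potassium transport, stood at 96.7, 67.6, 78.5 and 90.1 CPM untreated against 99.1, 121, 118 and 121 CPM (0.47, SE 0.13) with no overlap. Its relative Wnk2 was at 87.2, 97.5, 95.8 and 93.4 CPM untreated against 78.9, 70.8, 89.6 and 69 CPM (-0.28, SE 0.12). For Wnk2 the groups overlapped, and a nominal p under 0.05 held in 2 of the 8 fits that left out a library. Atp6v0a4, a subunit of the proton pump whose loss causes deafness in humans, stood at 6.06, 7.18, 6.57 and 4.65 CPM untreated against 3.06, 4.33, 4.69 and 2.99 CPM (-0.70, SE 0.23), with cisplatin 3 just above control 4. Over the 28 tested genes of endolymph ion transport 15 were higher and 13 lower, with 1 and 2 at a nominal p under 0.05 (4.43% and 5.28% of all genes).

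Fibrocytes of the spiral ligament showed no common direction, with 6 of 14 markers higher and 8 lower. Coch itself was at 36828, 27153, 30203 and 40828 CPM in untreated libraries and 39335, 39376, 50864 and 51393 CPM after cisplatin. Control 4 was above cisplatin 1 and cisplatin 2, so the groups overlapped (0.42, SE 0.19, and 0.49 without cisplatin 2). Otor, otoraplin, a secreted protein of the inner ear, was at 1806, 749.6, 581 and 1000 CPM untreated against 886, 476, 405 and 462 CPM (-0.89, SE 0.35), with control 1 and cisplatin 1 the highest of their groups. Otos, otospiralin, a fibrocyte protein, stood at 378, 515, 688 and 976 CPM untreated against 382, 185, 609 and 306 CPM, which overlap.

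Among matrix genes the collagens went both ways, with 11 of 28 higher and 17 lower and a median of -0.09. Col5a1, a fibrillar collagen, was at 40.2, 40.3, 39 and 31.2 CPM untreated and 42.5, 57.7, 56.3 and 43.4 CPM after cisplatin (0.41, SE 0.13). Col8a1, a short-chain collagen of vessel walls, was at 53.6, 64, 73.7 and 79.6 CPM untreated against 83.6, 120.2, 87.7 and 110.0 CPM (0.57, SE 0.20). In both the groups did not overlap and the direction was opposite to that of Col17a1. Of 21 connective tissue fibroblast markers 2 were nominally higher and 1 lower, against 4.43% and 5.28% of all genes. The higher were Col5a1 and Dpt, dermatopontin (0.437 to 1.37 CPM untreated against 1.54 to 3.05 CPM, 1.12, SE 0.43). The lower was Fbln2, a fibulin (8.93 to 13.7 CPM untreated against 5.18 to 8.85 CPM, -0.70, SE 0.32).

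Cartilage and osteocyte markers were lower on balance, by small amounts. Chondrocyte markers had a median of -0.12 with 15 of 21 lower, and their scores overlapped. Matn1 was nominally lower, as above. Col2a1, the main collagen of cartilage, was at 333, 284, 292 and 402 CPM untreated against 269, 293, 243 and 229 CPM, with cisplatin 2 inside the untreated range. Cytl1, a secreted cytokine-like protein of cartilage, went the other way and stood at 18.8, 31.5, 29.3 and 33.1 CPM untreated and 57.9, 249.8, 82.1 and 109 CPM after cisplatin, a log2 fold change of 2.15, SE 0.76 (1.57 without cisplatin 2), with every cisplatin library above every untreated library. Osteoblast markers had 8 higher and 8 lower, with Sparc, osteonectin, nominally higher (1925 to 3809 CPM untreated against 2897 to 4110 CPM, 0.51, SE 0.21) and Ibsp, bone sialoprotein, nominally lower (2.57 to 13.8 CPM untreated against 1.22 to 4.98 CPM, -1.35, SE 0.60). Of 9 osteocyte markers 7 were lower with 0 at a nominal p under 0.05, and their scores were -0.63 to 0.36 untreated and -0.80 to 0.37 after cisplatin.

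Vessel markers gave small medians of -0.10 for endothelium and 0.03 for pericytes and smooth muscle. Sox17, a transcription factor of arterial endothelium, was nominally lower without overlap, at 4.13, 3.0, 3.12 and 3.06 CPM untreated against 2.87, 1.88, 1.78 and 0.915 CPM (-0.84, SE 0.33). Des, desmin, of muscle cells, reached 117 CPM in cisplatin 2 and 11 to 21.3 CPM in the other cisplatin libraries, against 9.45 to 20.7 CPM untreated, so its log2 fold change went from 1.63 to 0.24 without cisplatin 2. Striated muscle markers had a median of -0.16, with Myh7b nominally lower and Myoz1, a calsarcin of fast muscle, nominally higher through cisplatin 2 (0.413, 0.312, 0.325 and 0.109 CPM untreated and 0.999, 3.3, 0.297 and 0.305 CPM after cisplatin). Adipocyte markers had 0 of 12 members at a nominal p under 0.05. Among osteoclast markers Tcirg1, a proton pump subunit, was nominally lower (19.9 to 32.5 CPM untreated against 14.7 to 23.4 CPM, -0.48, SE 0.22).

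Macrophage and neutrophil markers were highest in cisplatin 2. Macrophage markers had 17 of 20 members higher and a median of 0.19, or 0.03 without cisplatin 2, with scores of 0.16, 0.64, 0.34 and -0.53 after cisplatin and -0.13 to 0.09 untreated. The macrophage marker that was higher in every cisplatin library was Cd163, the scavenger receptor for haemoglobin and haptoglobin on tissue macrophages, at 2.34, 3.62, 2.47 and 3.72 CPM untreated and 4.25, 11.7, 11.8 and 6.71 CPM after cisplatin (1.5, SE 0.34, and 1.32 without cisplatin 2). Csf1r, which marks macrophages in general, was at 24.6, 29.2, 24.4 and 25.7 CPM untreated against 29.9, 44.2, 30.7 and 16.8 CPM, with overlap. Neutrophil markers rested on 7 tested members, with a median of 0.18 (-0.36 without cisplatin 2). Their score was 1.32 in cisplatin 2, -0.23 to 0.24 in the other cisplatin libraries and -0.21 to 0.48 untreated. The 1 nominally higher member (4.43% of all genes) was Fpr1, the formyl peptide receptor, which was low in both groups. It was at 0, 0.375, 0.26 and 0.383 CPM untreated against 1.06, 2.59, 0.772 and 0.671 CPM (2.26, SE 0.74). Lymphoid, erythroid and platelet lists had 5 to 8 tested members each and at most 1 at a nominal p under 0.05.

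Markers of secretory, simple and basal epithelium were high in a single library. The 15 tested genes of secretory and simple epithelium had a score of 1.72 in cisplatin 2, -0.02 to 0.07 in the other cisplatin libraries and -0.56 to 0.45 in the untreated group. Their median log2 fold change was 0.56 with cisplatin 2 and 0.09 without. Cldn4, a tight junction claudin, stood at 26.4, 30.7, 35.7 and 22.9 CPM untreated and 25.2, 418, 29 and 32.2 CPM after cisplatin. Elf3, an epithelial ETS factor, was at 4.89, 6.68, 11.8 and 3.61 CPM untreated against 8.87, 158, 7.18 and 8.66 CPM, and Krt19, a keratin of simple epithelia, at 82.4, 75.9, 125 and 46.1 CPM untreated against 70.5, 563, 70.0 and 83.6 CPM. Without cisplatin 2, 0 of the 15 genes were nominally higher. Keratinocyte and basal epithelium markers were also highest in cisplatin 2, with a score of 0.89 in cisplatin 2 and -0.22 to 0.16 in the others. Sfn, stratifin, was at 2.41, 2.12, 2.08 and 0.71 CPM untreated against 1.69, 54.6, 1.96 and 2.87 CPM. Krt13, a keratin of squamous mucosa outside this list, was at 2.48, 0.375, 2.8 and 0.492 CPM untreated against 1.81, 42, 1.31 and 3.42 CPM. Col17a1, though a member of the same list, was low in cisplatin 2 as in the other 3. Ciliated epithelium markers did not share this, with 15 of 20 lower and a median of -0.09, although Tppp3 stood at 259.8 CPM in cisplatin 2 against 41.5 to 109 CPM untreated. Why these epithelial transcripts were high in cisplatin 2 was not tested.

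Of the functions, genes that respond to glucocorticoids differed in the same direction in most members. This list holds genes bound or induced by the glucocorticoid receptor in several tissues, many of which also respond to other stresses. Of 22 tested members 20 were higher and 2 lower, 11 and 2 of them at a nominal p under 0.05, against 4.43% and 5.28% of all genes. For 7 members every cisplatin library lay above every untreated library (2.80% of all genes) and for 2 below (3.26%). The median log2 fold change was 0.46, and 0.27 without cisplatin 2, when 7 and 2 members stayed at a nominal p under 0.05. The scores were 0.17, 0.04, 0.08 and -0.29 in untreated libraries and 0.19, 0.85, 0.55 and 0.28 after cisplatin, so that cisplatin 1 was just above control 1.

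Hif3a, a hypoxia-inducible factor subunit known as a glucocorticoid target, stood at 125, 117, 106 and 70.8 CPM untreated and 218, 283, 349 and 230.5 CPM after cisplatin (1.37, SE 0.44, and 1.35 without cisplatin 2). Klf9, a Krüppel-like factor, was at 127, 138, 109 and 103 CPM untreated against 163, 279, 254 and 247 CPM (0.98, SE 0.28), and Glul, glutamine synthetase, at 1748, 1608, 1521 and 1320 CPM untreated against 1987, 3452, 2601 and 2148 CPM (0.72, SE 0.25). In all of these the groups did not overlap and cisplatin 1 was the lowest cisplatin library. Fkbp5, the cochaperone that restrains the glucocorticoid receptor, was at 62, 81.8, 72.7 and 32.7 CPM untreated against 87.1, 231, 217 and 213 CPM, with cisplatin 2, 3 and 4 near each other and cisplatin 1 just above control 2 (1.59, SE 0.68, with a nominal p under 0.05 in 1 of the 8 fits that left out a library). Sesn1, a sestrin that is also a p53 target, was at 123, 77.5, 96.6 and 66.2 CPM untreated against 136, 141, 137 and 135 CPM (0.59, SE 0.19), and the 4 cisplatin libraries were nearly equal. Dusp1, which inactivates MAP kinases, was at 44.3, 38, 27 and 29.8 CPM untreated against 46.6, 85.6, 58.5 and 57.5 CPM (0.83, SE 0.21, and 0.65 without cisplatin 2). Tsc22d3, the leucine zipper protein GILZ (0.75, SE 0.27), and Klf15, a regulator of amino acid breakdown (0.49, SE 0.17), were nominally higher with overlap, since cisplatin 1 lay inside the untreated range.

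Other members of the list owed their fold change to cisplatin 2. Cebpd, a C/EBP factor of acute inflammation, stood at 10.7, 9.06, 9.49 and 8.09 CPM untreated against 10.7, 101, 14.2 and 12.1 CPM, so that 1.89 became 0.41 without that library. Angptl4, a lipase inhibitor (1.53 and 0.40), and Errfi1, an inhibitor of the EGF receptor (1.09 and 0.23), differed likewise between the fits. The 2 lower members were Cdkn1c, a cell cycle inhibitor, at 133, 112, 118 and 116 CPM untreated against 100.01, 90.0, 101 and 75.6 CPM (-0.39, SE 0.12), and Tat, tyrosine aminotransferase, at 0.826, 1.06, 1.95 and 0.765 CPM untreated against 0.437, 0.129, 0.594 and 0.244 CPM (-1.68, SE 0.55). Both are known to be induced by glucocorticoids in other tissues, and both were lower here without overlap. Per1, a clock gene that glucocorticoids induce, stood at 257, 209, 243 and 185 CPM untreated against 236, 211, 241 and 219.7 CPM.

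**Figure D4:**
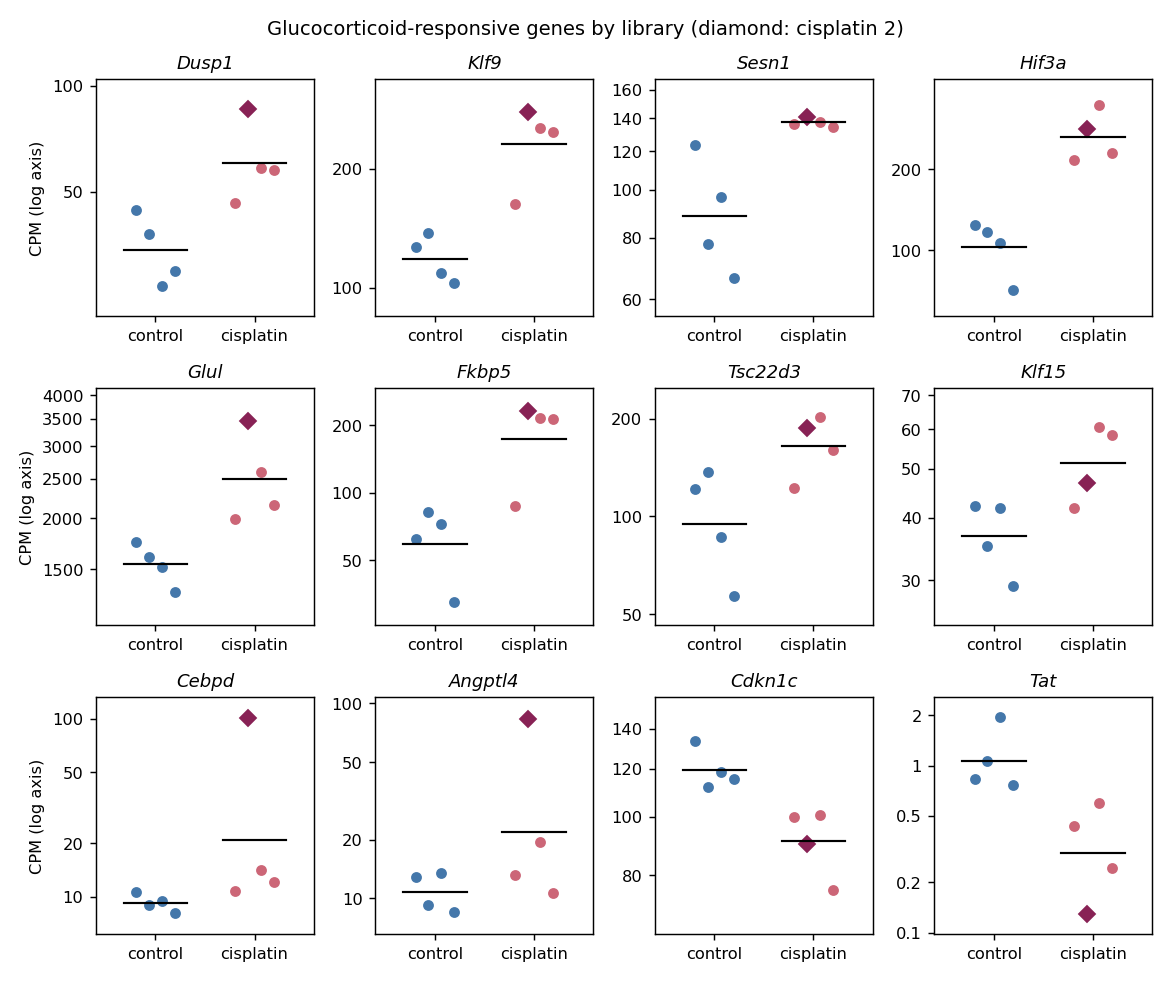
CPM on a log axis for 12 glucocorticoid-responsive genes, with 1 point per library, diamonds for cisplatin 2 and bars for the geometric mean of each group of 4. Hif3a, Klf9, Glul and Fkbp5 are above the untreated range in every cisplatin library, Cebpd and Angptl4 stand out in cisplatin 2 alone, and Cdkn1c and Tat are lower.

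Neighbouring functions shared single genes with this list. The hypoxia response had a median of 0.11 over 20 members (0.12 without cisplatin 2). Hif3a was the 1 member at a nominal p under 0.05, against 4.43% of all genes nominally higher. The target Vegfa stood at 38.3 to 70.9 CPM untreated and 40.9 to 50.9 CPM after cisplatin, and Ca9 at 6.43 to 9.1 CPM untreated against 5.67 to 8.37 CPM, with overlap. Among 19 clock genes, Hlf, a PAR-domain transcription factor, was at 237, 181, 221 and 267 CPM untreated against 251, 273, 321 and 393 CPM (0.45, SE 0.17), Bhlhe41, a clock repressor, at 91.4, 88.8, 105 and 116 CPM untreated against 136, 137, 116 and 139 CPM (0.39, SE 0.14), and Per3 at 75, 80.9, 71.3 and 103 CPM untreated against 68.7, 36.2, 60.2 and 61.5 CPM (-0.54, SE 0.23). Per3 was lower in every cisplatin library, while Hlf and Bhlhe41 were higher with overlap. The labels give no time of day for collection.

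Immediate early genes, which respond to stimuli within minutes and before new protein is made, had the highest median of all lists, 0.90, and it was 0.19 without cisplatin 2. Of 31 tested members 28 were higher, 12 at a nominal p under 0.05 (4.43% of all genes), or 5 without cisplatin 2 (3.49%). The score was 2.15 in cisplatin 2, -0.10 to 0.37 in the other cisplatin libraries and -0.10 to 0.12 untreated. Egr1, a zinc finger factor, stood at 26.9, 24.8, 33.6 and 29.5 CPM untreated and 26.7, 435, 34.7 and 41.6 CPM after cisplatin. Fos, an AP-1 subunit, was at 7.44, 4.56, 10.3 and 6.12 CPM untreated against 5.31, 161, 8.25 and 11.7 CPM, and Atf3, a stress-induced factor, at 4.48, 6.87, 5.2 and 5.19 CPM untreated against 3.5, 91.1, 7.0 and 7.99 CPM. In cisplatin 1 none of these 3 was above the untreated range. Members with a smaller but wider difference were Ccn2, connective tissue growth factor, at 1045, 684, 887 and 597 CPM untreated against 1025, 2015, 1473 and 1080 CPM (0.80, SE 0.23, and 0.58 without cisplatin 2), and Maff, a small Maf protein, at 9.02, 6.75, 9.3 and 10.2 CPM untreated against 9.86, 51.9, 18 and 16.4 CPM (1.45, SE 0.43, and 0.75). Klf6 stood at 28.3, 24.5, 23 and 31.3 CPM untreated against 31.2, 196, 39.2 and 39 CPM, so that 1.51 became 0.45 without cisplatin 2.

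Cytokine genes followed the same library. The NF-kappa-B and cytokine list had a score of 1.66 in cisplatin 2 and -0.05 to 0.16 in the other cisplatin libraries, against -0.09 to 0.12 untreated. Of 25 members 22 were higher and 4 nominally so (4.43% of all genes), and 0 were nominally higher without cisplatin 2 (medians 0.41 and 0.05). Ccl2, a monocyte chemokine, stood at 5.03, 1.06, 0.975 and 2.9 CPM untreated against 1.94, 79.3, 3.62 and 2.26 CPM, Cxcl2, a neutrophil chemokine, at 2.75, 3.87, 1.04 and 0.656 CPM untreated against 2.62, 50.1, 2.02 and 2.13 CPM, and Socs3, a feedback inhibitor of cytokine receptors, at 5.44, 8.74, 7.54 and 4.32 CPM untreated against 5.56, 137, 7.42 and 9.15 CPM. Lif, leukaemia inhibitory factor, was at 0.551, 0, 0.715 and 0.109 CPM untreated against 0.187, 54.5, 0.237 and 1.95 CPM. Adam8, a metalloprotease of leukocytes, was at 1.31, 1.31, 1.56 and 1.2 CPM untreated against 1.56, 53.2, 3.09 and 3.84 CPM (3.51, SE 1.05, and 1.08, SE 0.36 without cisplatin 2). By rank its groups did not overlap, but cisplatin 1 and control 3 were level at 1.56 CPM. Dusp5, an ERK phosphatase, moved from 3.93 to 0.76, Klk12, a kallikrein of epithelia, from 3.71 to 0.08, and Cldn6, a claudin, from 2.44 to 0.01 on the log2 scale when cisplatin 2 was left out. With limma-voom, which gave cisplatin 2 the lowest weight, the log2 fold change of Cldn6 was -0.38.

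**Figure D5:**
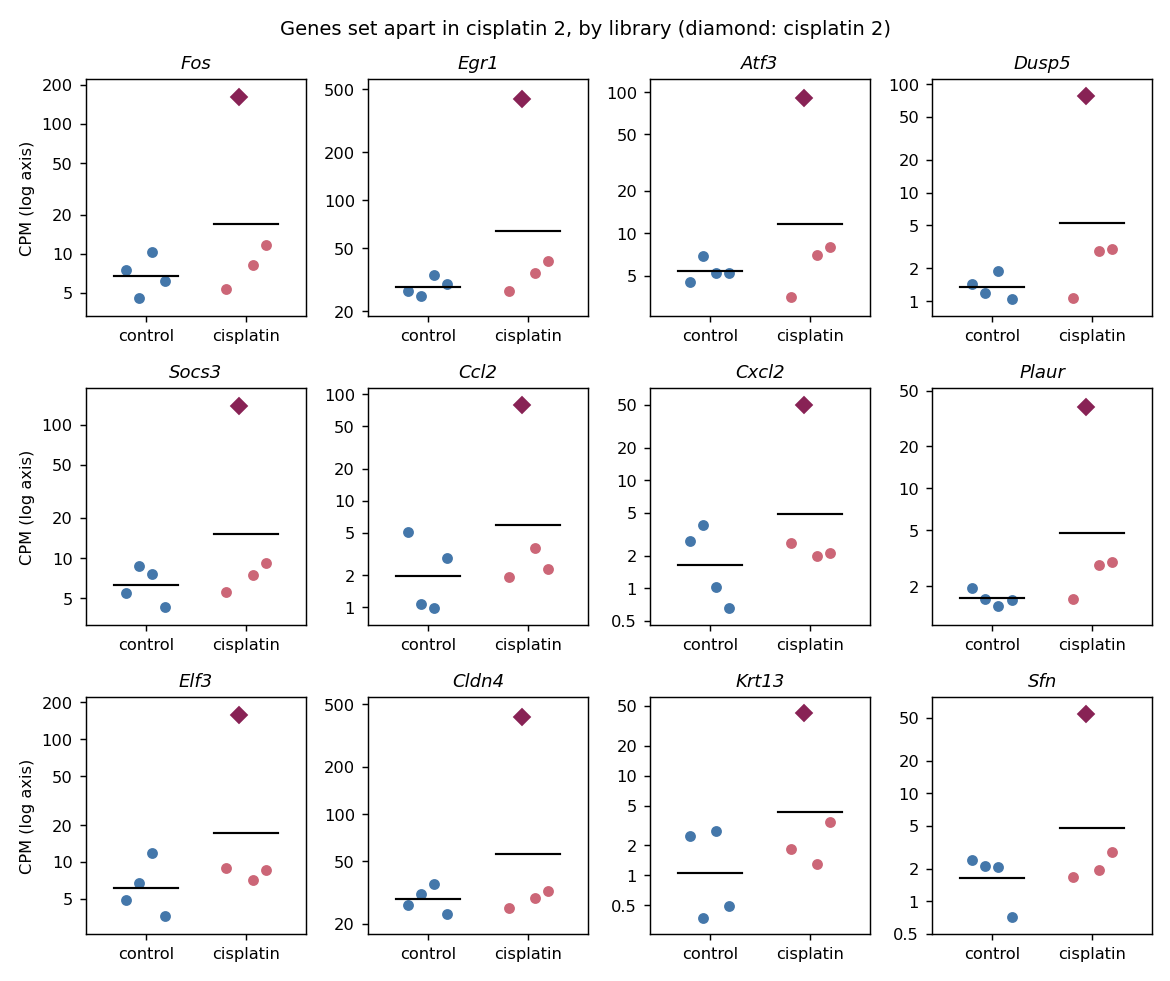
CPM on a log axis for 12 genes chosen because they were set apart in cisplatin 2, with 1 point per library. A diamond marks cisplatin 2, and bars mark the geometric mean of each group of 4. Cisplatin 2 stands above every other library, for example at 435 CPM for Egr1 and 418 CPM for Cldn4, and the other 3 cisplatin libraries lie in or near the untreated range.

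The responses most often tied to platinum damage gave small differences. The 27 tested p53 targets had a median of 0.20 (0.04 without cisplatin 2), with scores of 0.03, 0.45, 0.13 and 0.01 after cisplatin and -0.06 to 0.02 untreated. Of these, 4 were nominally higher, namely Sesn1, Gadd45a, Btg2 and Triap1, and Spata18 was nominally lower (against 4.43% and 5.28% of all genes). Without cisplatin 2, 1 was nominally higher and 1 lower. Gadd45a, a growth arrest gene, was at 16.4, 14.2, 14.2 and 14.2 CPM untreated against 14.9, 41.4, 19.5 and 21 CPM, and Btg2, an antiproliferative gene, at 28.1, 28.9, 27.9 and 45.2 CPM untreated against 37.8, 191, 55.6 and 41.1 CPM, in both cases with the highest value in cisplatin 2. Triap1, which protects from p53-dependent death, was at 21.6, 18.6, 21.3 and 19.3 CPM untreated against 24.2, 27.7, 26.4 and 27 CPM with no overlap (0.38, SE 0.16). The core targets Cdkn1a (139 to 186 CPM untreated against 128 to 241 CPM), Mdm2 (59.1 to 89.8 CPM untreated against 72.2 to 97.5 CPM) and Bax (21.6 to 26.9 CPM untreated against 20.6 to 34 CPM) overlapped between the groups.

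Platinum adduct repair genes had 15 of 32 members higher and 17 lower, with a median of -0.01. Ercc4, the XPF nuclease subunit, stood at 38.1, 36.4, 32.1 and 36.5 CPM untreated against 41.1, 41.9, 45.4 and 45.3 CPM (0.28, SE 0.11), and Ercc6, the transcription-coupled repair factor CSB, at 28.8, 27.9, 26.3 and 27.7 CPM untreated against 23.8, 23.3, 22.6 and 22.1 CPM (-0.27, SE 0.11). In both the groups did not overlap, in opposite directions and by a small amount. Of 19 genes of platinum transport and detoxification, 1 was nominally higher and 0 were lower, against 4.43% and 5.28% of all genes. Slc31a1, the copper transporter that takes up cisplatin, was at 26.9 to 36.3 CPM untreated against 32.4 to 48.1 CPM, and Slc22a2, an organic cation transporter, at 6.13, 11.3, 12.2 and 11.2 CPM untreated against 9.99, 9.7, 3.56 and 3.48 CPM, with overlap.

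Intrinsic apoptosis genes had 18 of 26 members higher with a median of 0.12 (0.05 without cisplatin 2). At a nominal p under 0.05, 2 members were higher and 1 lower (against 4.43% and 5.28% of all genes), or 2 and 2 without cisplatin 2. Mcl1, an anti-apoptotic BCL2 relative, was at 152, 135, 154 and 143 CPM untreated against 162, 288, 187 and 215 CPM without overlap (0.54, SE 0.16), and Bcl2l1, which encodes BCL-XL, at 135, 127, 144 and 100.4 CPM untreated against 138, 237, 163 and 157 CPM (0.46, SE 0.18). Hrk, a pro-apoptotic BH3-only gene of neurons, was at 17.1, 10.2, 12.4 and 12.2 CPM untreated against 10.5, 5.37, 5.16 and 6.71 CPM (-0.91, SE 0.26). Mcl1 and Hrk kept a nominal p under 0.05 in each of the 8 fits that left out a library. Of 15 genes of pyroptosis and necroptosis, 1 was nominally higher, against 4.43% of all genes. This was Ripk1 (29.7 to 34.8 CPM untreated against 34.5 to 46.8 CPM, 0.33, SE 0.14).

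Among unfolded protein response genes 18 of 28 were higher, with a median of 0.06 and scores of -0.10, 0.38, -0.08 and 0.03 after cisplatin. Atf4, the factor of the integrated stress response, was at 291, 251, 250.5 and 244 CPM untreated against 293, 440.3, 334 and 388 CPM without overlap (0.49, SE 0.14, and 0.39 without cisplatin 2). The chaperone Hspa5 was at 451 to 691 CPM untreated against 396 to 569.6 CPM. Without cisplatin 2, 2 members were nominally lower and 1 higher, against 4.52% and 3.49% of all genes. The lower were Sdf2l1 (-0.56) and Pdia6 (-0.45), both of the endoplasmic reticulum. For 5 of 28, Hspa5 among them, the cisplatin libraries then lay below every untreated library, against 5.30% of all genes. Antioxidant and NRF2 genes had a median of 0.07, near 0 without cisplatin 2, and the NRF2 target Nqo1 stood at 312 to 366 CPM untreated against 326 to 362 CPM.

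The interferon list varied most among the untreated libraries. The complement list varied among the cisplatin libraries instead, with scores of -0.35 to 0.61 against -0.04 to 0.03 untreated. All 21 tested interferon-stimulated genes were lower after cisplatin, with a median of -0.64 (-0.62 without cisplatin 2), and 1 was at a nominal p under 0.05. Their scores were 0.20, -0.81, -0.90 and 1.51 in untreated libraries and -0.49, -0.30, 0.02 and -0.56 after cisplatin, and without control 4 the median was 0.16, above 0. Irf7, the master regulator of interferon genes, was at 47.2, 16.2, 14.8 and 162 CPM untreated against 19.8, 23.7, 48.7 and 14.9 CPM. Antigen presentation genes were lower in 10 of 14 members (median -0.23). At a nominal p under 0.05, 1 was higher and 2 were lower, against 4.43% and 5.28% of all genes. The higher member, Ifi30, was at 18.8, 13.2, 15.8 and 13.8 CPM untreated against 15, 23.6, 24.8 and 19.9 CPM with overlap (0.44, SE 0.19). Nlrc5, the transactivator of MHC class I genes, was at 6.06, 4.18, 6.11 and 10.3 CPM untreated against 3.37, 2.91, 3.44 and 3.05 CPM with no overlap (-1.06, SE 0.29, and -1.01 without cisplatin 2), and Tap2, a peptide transporter, at 86.1, 48.8, 61.9 and 92.2 CPM untreated against 51.8, 59.4, 54.8 and 36.1 CPM (-0.52, SE 0.22). Control 4, the library with the highest interferon score, was also the highest for both Nlrc5 and Tap2. Among complement genes C2 was lower without overlap, at 13.6, 15.7, 13 and 19.9 CPM untreated against 4.43, 9.25, 11.6 and 7.2 CPM (-0.94, SE 0.28), while Cfp, properdin, was nominally higher, at 22.1, 20.9, 17.8 and 22.9 CPM untreated against 20.7, 30.0, 39.5 and 46.2 CPM (0.71, SE 0.23).

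F3 and F2 of the clotting genes, and Slc30a2 and Cd163 of the iron, haem and metal handling genes, were higher in every cisplatin library than in any untreated library. Of 18 genes of coagulation and fibrinolysis 5 were nominally higher and 1 lower (against 4.43% and 5.28% of all genes), or 3 and 2 without cisplatin 2, with medians of 0.20 and, without cisplatin 2, 0.20. Beside F3, F2, prothrombin, was at 3.65, 3.0, 4.1 and 3.5 CPM untreated against 5.18, 7.31, 6.53 and 4.76 CPM without overlap (0.74, SE 0.23). Thbd, thrombomodulin, which turns thrombin toward anticoagulant activity, was at 279, 209.7, 176 and 224 CPM untreated against 189, 163, 138 and 152 CPM (-0.47, SE 0.14), with cisplatin 1 inside the untreated range. Plaur, the urokinase receptor, was high in cisplatin 2, with cisplatin 1 inside the untreated range (1.93, 1.62, 1.43 and 1.58 CPM untreated against 1.62, 38.4, 2.85 and 2.99 CPM). Among 18 genes of iron, haem and metal handling, Slc30a2 stood at 10.3, 7.81, 10.1 and 8.58 CPM untreated against 13.9, 22.8, 17.9 and 21.3 CPM (1.04, SE 0.22, and 0.95 without cisplatin 2). Hamp, the iron hormone hepcidin, varied over 21.3, 15, 52.5 and 13.5 CPM untreated and 48.1, 183, 11.3 and 100.02 CPM after cisplatin, and Fth1, ferritin heavy chain, over 2688, 1957, 2284 and 2235 CPM untreated against 2852, 4600, 2778 and 2601 CPM. For both the groups overlapped.

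Protein turnover and translation genes differed by small amounts, with many members on the same side of 0. Of 31 proteasome subunits 29 were higher, with a median of 0.21 (0.12 without cisplatin 2), and 5 were at a nominal p under 0.05, against 4.43% of all genes (2 without cisplatin 2, against 3.49%). Psmc6, an ATPase of the regulatory particle, was at 45.5, 45.8, 47.8 and 42.6 CPM untreated against 53, 65.4, 55.3 and 58.5 CPM without overlap (0.35, SE 0.11). Of 76 cytosolic ribosomal proteins 64 were higher, with a median of 0.13 (0.05 without cisplatin 2), but their scores were 0.34, -0.26, 0.09 and -0.18 untreated and 0.17, 0.36, 0.08 and -0.11 after cisplatin, so that control 1 was above 3 of the cisplatin libraries. Subunits of 1 complex vary together and are not independent counts. Autophagy and lysosome genes had 20 of 27 members higher (median 0.08), 4 of them nominally, and 1 was nominally lower, or 2 and 1 without cisplatin 2 (4.43% and 5.28% of all genes with all libraries). Atg5, of the machinery that forms autophagosomes, was between 14 and 15.9 CPM untreated and between 17 and 20.6 CPM after cisplatin (0.32, SE 0.14). The nominally higher genes had a median exonic length of 2833 bases and the lower genes of 3799, against 3407 over all genes tested. Whether length plays a part in these differences was not tested.

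In energy metabolism few genes were at a nominal p under 0.05. Of 20 glycolysis genes 12 were higher and 8 lower, with a median of 0.03 (-0.06 without cisplatin 2). The 2 nominally higher (4.43% of all genes) were Pdk4 and Hk2. Without cisplatin 2, 1 was nominally higher and 1 lower (3.49% and 4.52% of all genes). Pdk4, the kinase that shuts pyruvate out of mitochondria and that fasting and glucocorticoids induce, stood at 171, 158, 177 and 162 CPM untreated against 192, 590.3, 283 and 298 CPM without overlap (1.03, SE 0.33, and 0.63 without cisplatin 2). Hk2, a hexokinase, was at 11.2, 11, 10.5 and 6.01 CPM untreated against 8.43, 33.6, 15.4 and 18.3 CPM (0.97, SE 0.42, and 0.55). Of 20 genes of fatty acid oxidation 14 were higher, 3 of them nominally (4.43% of all genes), and 1 was nominally higher without cisplatin 2 (3.49%). Acaa2, a thiolase, was at 45.4, 49.8, 51.8 and 46 CPM untreated against 50.4, 67.4, 57.6 and 66.6 CPM (0.33, SE 0.12). Etfa, an electron carrier, was at 84.8, 65.3, 80.6 and 57.3 CPM untreated against 71.1, 127, 92.8 and 102 CPM (0.45, SE 0.17). Oxidative phosphorylation genes had 26 of 36 members higher with a median of 0.08, and 1 was nominally higher, against 4.43% of all genes. This was Sdhd, of succinate dehydrogenase (121, 107, 95.5 and 117 CPM untreated against 128, 125, 158 and 152 CPM, 0.35, SE 0.12). In proline metabolism, beside Prodh, which breaks proline down, Pycr1, which makes it, was at 27, 26, 30.0 and 32.1 CPM untreated against 25.2, 21.3, 17.5 and 24.1 CPM with no overlap (-0.39, SE 0.15). Cholesterol synthesis genes had a median of 0.22 and 0.03 without cisplatin 2, in which the score was 0.71 (-0.05 to 0.04 in the other cisplatin libraries).

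Cell cycle genes had 14 of 22 tested members higher and 3 nominally so (4.43% of all genes), or 2 without cisplatin 2 (3.49%). Rrm2, a ribonucleotide reductase subunit, was low at 0.207, 0.437, 0.325 and 0.601 CPM untreated and 0.687, 1.94, 0.772 and 1.34 CPM after cisplatin, with no overlap (1.56, SE 0.53). Tpx2, a spindle factor, was at 14, 18.2, 14.6 and 12.7 CPM untreated against 21.8, 30.8, 19.8 and 17.3 CPM (0.59, SE 0.22), and Plk1, a mitotic kinase, at 18.8, 19.4, 15.9 and 17.1 CPM untreated against 21, 17.7, 23.9 and 25.9 CPM (0.32, SE 0.14). Pkmyt1, an inhibitory kinase of the cell cycle, had an unadjusted p under 0.01 with any library left out, at 9.5, 5.56, 6.31 and 6.18 CPM untreated against 8.55, 13.5, 16.5 and 18.2 CPM (1.04, SE 0.26). Heat shock proteins had 9 higher and 11 lower members. With all libraries 0 were at a nominal p under 0.05, and in 0 did the groups not overlap. Without cisplatin 2, 1 of 20 was nominally lower (4.52% of all genes) and 2 lay below every untreated library (5.30%). The small heat shock protein Hspb1 was then at -0.61, with 115, 153, 132 and 121 CPM untreated and 80.8 to 90.8 CPM in cisplatin 1, 3 and 4.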

How the data were processed

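Total cochlear RNA of guinea pigs was sequenced in 11 libraries: 4 untreated, 4 cisplatin and 3 cisplatin with STB. Per the labels' protocols, RNA was extracted on columns, enriched by oligo(dT) or by removal of ribosomal RNA (which library received which is not stated) and made into stranded paired-end libraries by dUTP marking. The submitters' processing notes name cutadapt 1.9.1, HISAT2 2.2.1 and HTSeq 0.6.1 without a role or a genome assembly. The deposited table holds the authors' raw read counts per gene, not normalized, for 21481 genes, and beside them FPKM values of the authors, which entered no test. Intervals from these counts would cover counting error only, and precision was taken from the spread between libraries.

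R 4.3.3 was used on the counts. edgeR's filterByExpr took out 6097 genes of low count and left 15384. Libraries were scaled by TMM (factors 0.9508 to 1.03 in the 8 libraries compared), and cisplatin was set against control with the quasi-likelihood test of edgeR 4.0.16, in 1 fit of all 11 libraries by group, with Benjamini-Hochberg adjustment over all tested genes. The common biological coefficient of variation was 0.276. Alternatives were DESeq2 1.42.0, limma 3.58.1 (voom with quality weights, lowest in cisplatin 2 at 0.4554), other scalings and filters, the 8 libraries alone, a replicate block and each library left out. In simulated counts for this comparison (15212 genes, 4 libraries a group), edgeR called 56% of 100 genes with a 2-fold difference and 97% of 100 with a 4-fold difference. Of its 159 calls 3.77% were false. The changed genes were not drawn from genes of low untreated mean, and no simulated library was made to stand apart as cisplatin 2 does. These rates therefore do not cover low-count genes or such a library.

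List scores used log2 CPM with a prior count of 2. Lists were described by counts and medians, with the shares over all genes given once for all lists and beside several counts, and no test was run on a list. The genes named were the 20 with the smallest p in each direction among genes with groups that do not overlap, DESeq2's calls, genes with p under 0.01 with any library left out, the 10 whose fold change moved most without cisplatin 2 (all with group means reaching 1 CPM and a symbol other than a LOC symbol), and up to 4 leading and 4 defining members of each list. The groups, lists and members were chosen with earlier results of these data known. Some genes that this rule takes are not reported here, and STB libraries were not compared.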

Additional observations from a re-analysis of the deposited data

Results flagged for a closer look

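A value is given here where 1 of the 4 libraries of a group lay far from the other 3, by Dixon's criterion on the gap to the nearest library as a share of the group's range. Of 314 groups of gene values and 110 groups of list scores tested, 53 met it. Cisplatin 2 accounted for 22 of the gene values and 5 of the list scores. Among the genes tested were the 10 chosen because their fold change moved most without cisplatin 2, and all 10 are among these 22. Chance alone gives about 1 in 20 groups, a rate that does not apply to genes chosen in this way.

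Cisplatin 2 was far above the other cisplatin libraries for genes of immediate early and cytokine responses. It held 161 CPM for Fos, 8.54 for Fosl1, an AP-1 subunit, 91.1 for Atf3, 77.8 for Dusp5 and 191 for Btg2. Among cytokine and leukocyte genes it held 79.3 CPM for Ccl2, 50.1 for Cxcl2, 54.5 for Lif, 137 for Socs3, 53.2 for Adam8 and 38.4 for Plaur. Epithelial genes stood at 418 CPM for Cldn4, 10.8 for Cldn6, 158 for Elf3, 42 for Krt13, 54.6 for Sfn and 32.5 for Klk12. Des stood at 117 CPM, Fth1 at 4600, Psmc1, a proteasome ATPase, at 168 and Rpl17, a ribosomal protein, at 716 CPM. B3gntl1, a glycosyltransferase-like gene, was low in cisplatin 2, at 11.8 CPM. The list scores of cisplatin 2 stood apart for secretory and simple epithelium (1.72), NF-kappa-B and cytokine signalling (1.66), cholesterol synthesis (0.712), coagulation and fibrinolysis (0.674) and intrinsic apoptosis (0.416).

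Cisplatin 1 lay on the side of the untreated group for Adap2 (146 CPM), Slbp (48.7), Sparc (2900), Wnk4 (99.1), Macrod2 (16.9), Kcna4 (9.43), Otor (886) and Rfx1, a regulatory factor X gene (25.2 CPM). Its list scores stood apart for T and NK lineage (0.442) and platinum adduct repair (0.109). Cisplatin 3 was high for Ankrd35 (103 CPM) and low for Bhlhe41 (116 CPM).

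In the untreated group, control 4 was high for Afm, afamin (102 CPM), Btg2 (45.2), Col17a1 (22.8), Dleu7 (47.9) and Smndc1, a splicing factor (34.3), and low for Col5a1 (31.2) and Hk2 (6.01 CPM). Control 1 was high for Ankrd35 (70.5 CPM), Atf4 (291), Gadd45a (16.4) and Sox17 (4.13 CPM). By list score, control 2 was high for heat shock proteins (0.422) and low for p53 targets (-0.0564), and control 3 was high for neutrophil and granulocyte precursor markers (0.478).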

How the results depend on the processing

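The count of 0 genes at an adjusted p under 0.05 by edgeR was 1 with no low-count filter, 33 with DESeq2 and 3 with limma-voom with quality weights. With 1 library left out it ranged from 0 to 7. It was 7 without cisplatin 1, 1 (Adap2) without the second and 1 (Col17a1) without the third library of cisplatin with STB, and 0 without each of the others. Genes at an unadjusted p under 0.05 numbered 1183 higher and 1465 lower with limma-voom, and with 1 library left out 458 to 1016 higher and 512 (without cisplatin 4) to 1186 (without cisplatin 1) lower. Genes whose groups do not overlap numbered 932 and, with 1 library left out, 1183 to 2318, which was 1709 without control 1, 1677 without control 4, 2318 without cisplatin 1 and 1461 without cisplatin 2. Fewer libraries overlap less often by construction. With the replicate block, 661 genes were higher and 870 lower at an unadjusted p under 0.05, and 0 passed the adjustment. Same-numbered libraries correlated at 0.0854, -0.101, -0.04 and 0.305 in their deviations from the group means, so the numbers were not taken as pairs. Of 2971 values of the 157 genes described, under 19 alternatives, 2934 kept their direction and side of the threshold, 36 passed the threshold, and 1 changed sign, Cldn6, at -0.38 with limma-voom. For that gene the cause was not tested. List medians changed sign with another scaling for 2 of 55 lists (megakaryocyte and platelet, -0.02 with upper-quartile scaling, and platinum transport and detoxification, 0.00 with DESeq2 size factors), and with 1 of the 8 libraries left out for 28. Without members named in the text, chosen after seeing the data, the scores of the 3 lists that did not overlap came to overlap: hypoxia at -0.13 to 0.09 untreated and 0.06 to 0.16 after cisplatin, iron at -0.07 to 0.10 and -0.16 to 0.30, and glucocorticoid at -0.28 to 0.13 and 0.11 to 0.80.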
